A study of Mus musculus with 9 samples.

Results

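The genes described here are 34 components and targets of the NF-κB pathway, taken by gene symbol from a table of 53796 mouse genes. They were sorted into 7 roles: receptors, receptor adaptors, IκB kinases, IκB proteins, Rel subunits, feedback regulators and target genes. Of the 34, 31 had a mean of at least 1 FPKM over all libraries and were tested, among 12212 such genes in all. FPKM, the number of fragments relative to transcript length and library size, corrects for length, so levels of different genes can be set side by side. RNA was sequenced from CT26, a mouse colorectal carcinoma line, with Pd-l1 (gene symbol Cd274), the ligand of the T-cell receptor PD-1, knocked out in all 9 samples. Retrovirus put back an empty control vector in the KO group, wild-type mouse Pd-l1 in the WT group, and the K262Q mutant of mouse Pd-l1 in the K262Q group, with 3 samples in each. Every group was a puromycin-resistant pool of cells rather than a single clone, grown in RPMI with fetal bovine serum. The labels name no added cytokine. Construct and pool coincide, so a difference between pools cannot be told apart from an effect of the added construct. Whether the 3 samples of a group were grown as separate cultures is not stated, and the p-values therefore rest on a spread that may be technical.

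NF-κB factors are dimers of Rel-family subunits that IκB proteins hold in the cytoplasm. When receptors such as those for TNF bind their ligand, adaptor proteins recruit the IκB kinase complex, IκB is phosphorylated and degraded, and the dimers enter the nucleus. There they bind short κB sites and activate genes for inflammation, cell survival and adhesion, and also genes that end the signal, among them the IκB proteins and A20. In tumour cells the pathway is known for linking inflammatory signals to survival, and Cd274 is itself a described NF-κB target. RNA levels, which are all that was measured here, do not report the degradation of IκB or the nuclear entry of the subunits.

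RefSeq promoter windows of GRCm38.p6, covering 250 bases before a gene's start, were at hand for 29 of the 34 members. Vcam1, Relb, Nfkb1, Nfkbiz and Ikbkb had no entry. The 10-base κB consensus, searched on both strands, was present for 11 of the 29 members (37.9%) and for 8.23% of the 27025 genes with a window. Counted by window, 16 of 41 member windows (39.0%) and 7.25% of 32851 windows in all held it, and windows of alternative starts of 1 gene can overlap. No other pattern was searched. These matches describe letters in the windows only. Stretches of 30 bases are printed below for the 3 members that passed the test and had a match (Tnfrsf9, Tnfaip2 and Sod2). Another 4 members that had a match but did not pass (Nfkbia, Rel, Nfkb2 and Tnip1) have 1 stretch each. Those of Nfkbie, Traf3, Tank and Tnfaip3, which did not pass either, are not printed. The stretches are written 5′ to 3′ on the strand of the gene, and capitals mark the bases inside a match on either strand.
Tnfrsf9, chr4:150927947-150927976, plus strand: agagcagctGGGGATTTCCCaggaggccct
Tnfaip2, chr12:111442627-111442656, plus strand: gactattttaGGAGGGCCCCtccagggtcg
Sod2, chr17:13007746-13007775, plus strand: cggggcggacGGGGTTCCCCgaggcggggc
Nfkbia, chr12:55492657-55492686, minus strand: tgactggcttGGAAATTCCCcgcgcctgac
Rel, chr11:23771041-23771070, minus strand: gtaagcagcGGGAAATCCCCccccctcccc
Nfkb2, chr19:46304689-46304718, plus strand: gatcgtcacGGGAATTCCCCccctcggggg
Tnip1, chr11:54962978-54963007, minus strand: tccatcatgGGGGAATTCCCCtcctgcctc
Counted from the RefSeq start of the window, the first base of the printed match lay 43 bases upstream in Tnfrsf9, 24 in Tnfaip2, 83 in Sod2, 29 in Nfkbia, 92 in Rel, 39 in Nfkb2 and 58 in Tnip1. GENCODE annotates further transcripts, so a window can lie inside the gene: its exons cover 192 of the 250 window bases in Tnfaip2, all 250 in the printed window of Nfkb2, 81 in Tnfrsf9, 22 in Sod2, 1 in Rel and 0 in Nfkbia and Tnip1. Nfkb2 had 3 further stretches with a match, which are not printed. That beginning 11 bases upstream lay in the same window as the printed stretch. Those beginning 236 and 225 bases upstream lay in windows of its alternative starts. In Tnfrsf9 the match belonged to the downstream of 2 annotated starts, and the window of the upstream start held none. A match was thus found in members that fell, in 1 that rose and in members that did not pass the test. The window of Ptgs2 held none.

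The targeted gene followed its labels: Cd274 lay between 0.357 and 0.982 FPKM in the KO libraries, between 35.4 and 38.0 in WT and between 37.6 and 41.3 in K262Q. The steps between low FPKM values imply 17.9 M to 19.2 M fragments per library (M, 1e6), at which 1 FPKM of a transcript of 2000 nt stands for 35.8 to 38.3 fragments, with a counting SD of 16.2% to 16.7%. Of 6 epithelial markers only Krt18 reached a mean of 1 FPKM, Cdh1 was listed at 0 in every library and Epcam in 8 of 9, while the mesenchymal marker Vim lay between 2867 and 3337 FPKM. Epcam and Cdh1 were thus at or near 0 in cells labelled colorectal carcinoma, whereas Krt18 lay between 26.1 and 35.7 FPKM. In the bulk RNA of each pool, fewer cells expressing a gene and less RNA per cell cannot be told apart.

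Between K262Q and WT cells, whose added Pd-l1 differs in 1 residue, 4 of 31 tested members passed an adjusted p of 0.05 in limma. Benjamini-Hochberg adjustment was over all 12212 genes. Tnfrsf9 and Tnfaip2 fell, and Vcam1 and Sod2 rose. Among all genes tested 9.38% passed (6.35% higher and 3.02% lower in K262Q), so the number of calls among members was near the background. The 3 K262Q values lay below all 3 WT values in 11 members, against 13.4% of all genes, and above them in 2, against 22%. The median log2 difference was -0.08 over the members and 0.03 over all genes, with 20 of 31 members and 43.2% of all genes below 0. At an unadjusted p under 0.05 there were 10 members, against 27.9% of all genes. With TMM scaling of the libraries, the calls among all genes moved from 776 higher and 369 lower to 588 higher and 477 lower, and those among members from 2 higher and 2 lower to 0 higher and 3 lower. No scaling moved the median of all genes by more than 0.03. FPKM summed over all genes was 719530 to 741870 in the K262Q libraries and 651950 to 678850 in WT. The part of these totals in the differences was not tested.

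**Figure D1:**
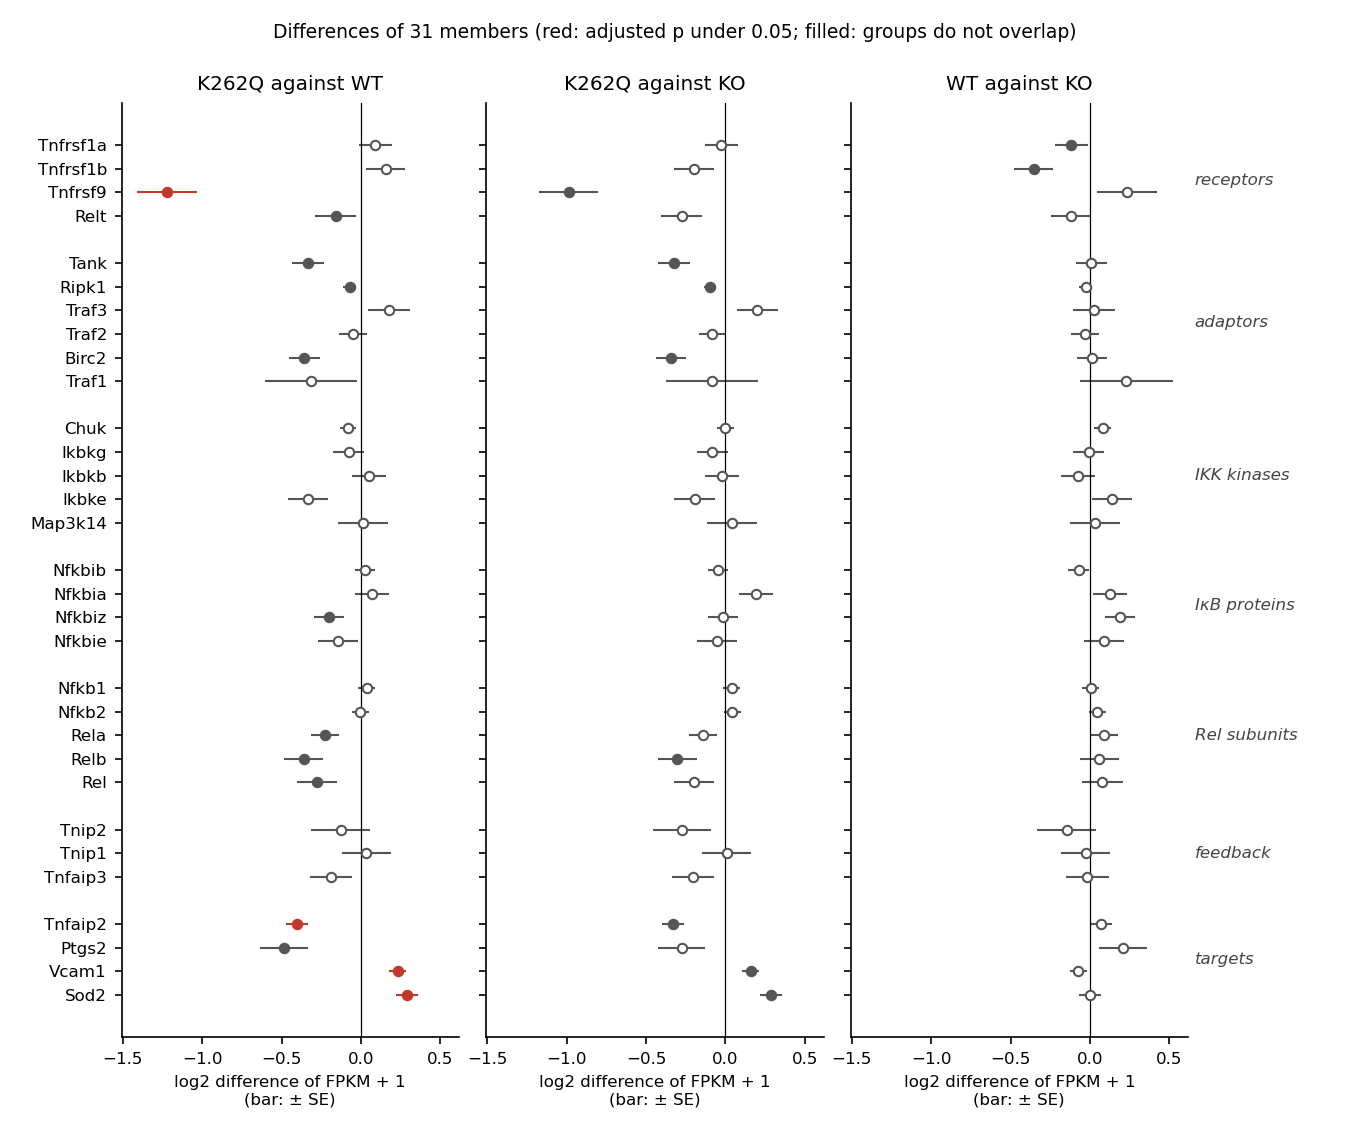
Log2 differences of FPKM + 1 (horizontal axis, bars ± SE) for the 31 tested members, by role, in each of the 3 comparisons; filled points mark groups whose 3 values do not overlap and red marks an adjusted p under 0.05. Red points occur only in K262Q against WT, where Tnfrsf9 lies at -1.22, while no member passed in the other comparisons.

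Among the receptors, Tnfrsf9 (4-1BB, a TNF-receptor family member best known as a T-cell costimulator) changed most. It measured 2.73, 2.88 and 4.20 FPKM in the KO libraries, 2.90, 4.72 and 4.51 in WT, and 1.22, 1.22 and 0.958 in K262Q. Every K262Q library lay below every library of the other groups, and the 3 K262Q libraries were close to each other. The K262Q mean of 1.13 ± 0.150 FPKM (SD, n = 3) stood against 4.04 ± 0.995 in WT, a ratio of 0.280 between means. On the log2(FPKM + 1) scale the difference was -1.22 ± 0.19 (SE; limma adjusted p = 0.0179), and against KO it was -0.99 ± 0.19 (adjusted p = 0.0552). The call against WT was lost without WT replicate 2 (adjusted p = 0.0584), K262Q replicate 2 (0.0669) or K262Q replicate 3 (0.0664). Tnfrsf9 lies at chr4:150914562-150946102 (GRCm38, plus strand), inside Camta1 on the opposite strand, with which it shares no exonic base. The locus given for Tnfrsf9 in the table spans 947316 bases, against 31541 for the annotated gene. Camta1 measured 48.6, 55.6 and 56.5 FPKM in WT and 31.7, 42.8 and 40.5 in K262Q, a log2 difference of -0.48 ± 0.15 (adjusted p = 0.0834). The labels do not state whether counting used strand, and the part of Camta1 reads in the values of Tnfrsf9 was not tested.

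The 3 other receptors did not pass in any comparison. Tnfrsf1a, the main receptor for soluble TNF, was the highest of them, at 47.7 to 64.5 FPKM, and exceeded Tnfrsf1b, the other TNF receptor, by 4.85 to 8.14 times in each library. Its difference between K262Q and WT was 0.09 (95% interval -0.15 to 0.33). Tnfrsf1b measured 8.87, 10.97 and 9.12 FPKM in KO, 6.77, 6.86 and 8.35 in WT, and 9.67, 7.93 and 7.29 in K262Q. All WT values lay below all KO values, whereas K262Q overlapped both groups. The WT against KO difference of -0.36 ± 0.12 had an unadjusted p of 0.0218 and an adjusted p of 0.854. Relt, a further TNF-receptor family member, lay between 1.94 and 3.61 FPKM, with all K262Q values below those of WT (log2 difference -0.16, adjusted p = 0.465).

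The receptor adaptors carry the signal from the receptors to the kinases. Of their 6 differences between K262Q and WT 5 were below 0, against 43.2% of all genes. None of the 6 tested passed. Birc2 (cIAP1, a ubiquitin ligase of the TNF receptor complex) came nearest. Its levels were 11.8, 11.6 and 12.4 FPKM in KO, 12.2, 13.4 and 10.6 in WT, and 8.33, 10.3 and 8.95 in K262Q. K262Q lay below both other groups without overlap, by -0.36 ± 0.10 against WT (limma adjusted p = 0.0600) and -0.34 ± 0.10 against KO (0.102). It passed against WT only with TMM scaling (adjusted p = 0.0473). Tank, a TRAF-binding protein that also scaffolds the IKK-related kinases, had the same order. It measured 35.0, 36.9 and 40.2 FPKM in KO, 41.1, 34.8 and 36.9 in WT, and 26.0, 30.5 and 32.7 in K262Q. Again no K262Q library reached the other groups, with differences of -0.33 ± 0.10 against WT (adjusted p = 0.0731) and -0.32 ± 0.10 against KO (0.120).

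Ripk1, the kinase scaffold of the TNF receptor complex, was also lowest in all K262Q libraries but by little, at 14.4 to 15.3 FPKM against 15.5 to 16.0 in WT and 15.8 to 16.3 in KO. The difference from WT was -0.07 (95% interval -0.16 to 0.02). Traf2, which binds TNF receptor complexes and recruits the cIAP proteins, lay between 12.1 and 15.2 FPKM and Traf3, a brake on the non-canonical branch, between 11.5 and 16.9. Both overlapped between all groups. Traf1, an adaptor that is itself induced by NF-κB, varied most within groups, from 0.943 to 2.69 FPKM in KO and from 0.925 to 2.45 in K262Q, so that its interval against WT ran from -0.99 to 0.36. Birc3 (cIAP2), also an NF-κB-induced gene, was listed at 0 in 7 libraries and reached 0.0203 FPKM in KO replicate 1 and 0.137 in WT replicate 3; it was not tested.

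None of the 5 genes sorted into the IκB kinase role, not all of them IκB kinases themselves, passed in any comparison. Chuk (IKKα) was the highest at 40.3 to 46.5 FPKM, followed by the regulatory subunit Ikbkg (NEMO) at 26.4 to 35.9 and Ikbkb (IKKβ) at 13.1 to 16.7. Chuk exceeded Ikbkb by 2.51 to 3.50 times in each library. The difference between K262Q and WT was -0.08 in Chuk (95% interval -0.20 to 0.04), -0.08 in Ikbkg (-0.30 to 0.15) and 0.05 in Ikbkb (-0.20 to 0.30). Ikbke, an IKK-related kinase that is inducible in many cells, ranged over 3.90 to 4.64 FPKM in KO, 3.97 to 5.39 for WT and 3.07 to 4.18 for K262Q. Its difference from WT was -0.33 ± 0.13 with an adjusted p of 0.138, and the groups overlapped. Map3k14 (NIK), the kinase of the non-canonical branch, lay between 1.48 and 2.49 FPKM and differed by 0.01 (-0.36 to 0.38). Ikbkg shares 418 exonic bases with G6pdx on the opposite strand. Among other members, Ripk1 shares 241 with Serpinb6a (a mean of 191 to 199 FPKM over the groups), Nfkb2 shares 299 with Psd and Nfkbib shares 42 with Sirt2, all on the opposite strand, and Ripk1 shares 511 with Gm17084 on its own strand. The levels of these members are uncertain to that extent.

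The IκB proteins showed no call either. Nfkbib (IκBβ) was the highest at 23.1 to 27.8 FPKM. Nfkbia (IκBα), the inhibitor that NF-κB induces first after a stimulus, measured 9.19, 12.96 and 11.1 FPKM in KO, 11.4, 12.1 and 12.6 in WT, and 12.2, 12.7 and 13.2 in K262Q. All K262Q values lay within or just above the ranges of the other groups. Its difference between K262Q and WT was 0.07 (95% interval -0.18 to 0.32, adjusted p = 0.716). Nfkbiz (IκBζ), a nuclear member that modifies target choice, lay lower in all K262Q libraries (5.64 to 6.37 FPKM) than in WT (6.61 to 7.29), with a log2 difference of -0.20 ± 0.10 and an adjusted p of 0.216. KO spanned 5.10 to 6.77 and overlapped both. Nfkbie (IκBε) lay between 1.95 and 3.03 FPKM in all libraries. Bcl3, a nuclear coactivator of the same family, stayed between 0.276 and 0.961 FPKM with a mean under 1 and was not tested.

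**Figure D2:**
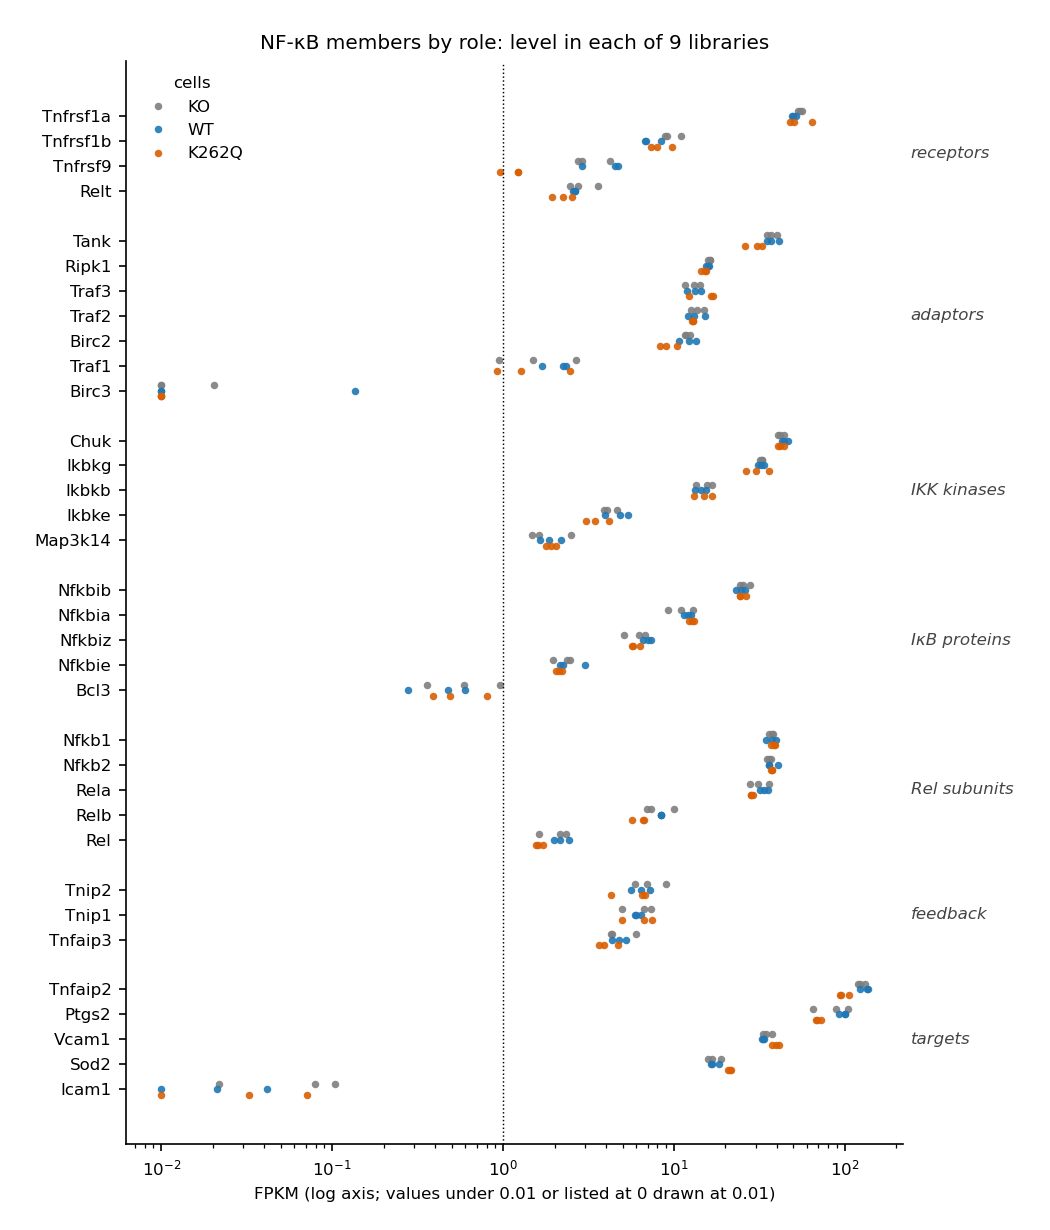
FPKM (horizontal log axis) of all 34 members by role, with 1 point per library coloured by group; the dotted line marks 1 FPKM and values listed at 0 are drawn at 0.01. Levels ranged from Tnfaip2, between 94.1 and 136 FPKM, down to Birc3, listed at 0 in 7 libraries.

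Of the Rel subunits, the precursors Nfkb1 (p105/p50) and Nfkb2 (p100/p52) were the most abundant, with similar means in the 3 groups. Nfkb1 averaged 37.0 ± 0.984 FPKM in KO, 37.1 ± 2.52 in WT and 38.0 ± 1.10 in K262Q (SD, n = 3 each). Nfkb2 averaged 36.1 ± 1.06, 37.4 ± 2.71 and 37.2 ± 0.398 in the same order. Between K262Q and WT they differed by 0.04 (95% interval -0.09 to 0.16) and -0.004 (-0.13 to 0.12). The 3 subunits with a transactivation domain lay lower in all K262Q libraries than in all WT libraries, as did 13.4% of all genes. None passed in the fit of all 9 libraries. With only WT and K262Q in the fit, Rela (limma adjusted p = 0.0487) and Relb (0.0387) passed. Rela (p65), the main transactivating subunit, measured 30.9, 28.0 and 36.0 FPKM in KO, 33.4, 31.7 and 35.7 in WT, and 28.3, 29.0 and 28.1 in K262Q (log2 difference -0.23 ± 0.09 from WT, limma adjusted p = 0.138).

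Relb, the partner of p52 in the non-canonical branch, measured 7.32, 6.95 and 10.0 FPKM in KO, 8.36, 8.34 and 8.39 in WT, and 6.64, 5.66 and 6.62 in K262Q. The SD of the WT libraries was 0.0283 FPKM, and K262Q was below both other groups without overlap. The differences were -0.36 ± 0.12 from WT (adjusted p = 0.103) and -0.30 ± 0.12 from KO (0.201). Rel (c-Rel), the lymphoid-enriched subunit, was the lowest at 2.15, 1.62 and 2.32 FPKM in KO, 2.43, 1.99 and 2.16 in WT, and 1.72, 1.56 and 1.60 in K262Q. Here KO replicate 2 fell among the K262Q values, and the difference from WT was -0.28 ± 0.13 (adjusted p = 0.203). Rela exceeded Rel by 13.8 to 18.6 times and Relb by 3.605 to 5.12 times, library by library. The ratio of Nfkb1 to Rela was 1.30, 1.34 and 1.37 in K262Q and 1.12, 1.09 and 1.10 in WT, while KO spanned 1.05 to 1.33. This ratio was not tested, and of the ratios given only this one was split by group.

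The 3 feedback regulators, which remove or block ubiquitin chains on signalling proteins, did not pass. Tnfaip3 (A20) ranged over 4.29 to 6.03 FPKM in KO, 4.36 to 5.25 for WT and 3.66 to 4.69 for K262Q, a log2 difference of -0.19 (95% interval -0.50 to 0.12) between K262Q and WT. Its binding partners Tnip1 and Tnip2 differed by 0.03 (-0.33 to 0.40) and -0.13 (-0.56 to 0.30). These intervals are wide: a change of 0.3 on the log2 scale in either direction lies inside that of Tnip1 and that of Tnip2.

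The target genes held 3 of the 4 calls, and they moved in both directions. These were 3 of 4 tested targets, where 9.38% of all genes passed. The list was drawn up with earlier results known, and of 12 other tested targets of the pathway 0 passed. Tnfaip2, a TNF-induced protein of membrane protrusions, was the most abundant member and fell. It measured 132, 119 and 122 FPKM in KO, 134, 122 and 136 in WT, and 95.5, 94.1 and 106 in K262Q. No K262Q library reached the other groups, and KO and WT overlapped. The K262Q mean of 98.6 ± 6.62 FPKM (SD, n = 3) compared with 131 ± 7.75 in WT, a log2 difference of -0.40 ± 0.07 (SE; limma adjusted p = 0.0222), and with KO the difference was -0.33 ± 0.07 (adjusted p = 0.0611). The call against WT was lost on leaving out any WT or any K262Q library, with adjusted p from 0.0528 to 0.0781. Tnfaip2 lies at chr12:111442469-111455018 (GRCm38, plus strand).

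Ptgs2 (COX-2), the inducible enzyme of prostaglandin synthesis and a standard NF-κB target, went the same way but did not pass. Its levels were 88.2, 64.9 and 105 FPKM in KO, 99.98, 92.9 and 100.04 in WT, and 67.9, 72.2 and 68.3 in K262Q. All K262Q values lay below WT, while KO replicate 2 lay below every K262Q library. The difference from WT was -0.48 ± 0.15 (adjusted p = 0.0840). It passed on leaving out KO replicate 2 (0.0121) or KO replicate 3 (0.0439), since the KO libraries enter the shared estimate of the spread, and with only WT and K262Q in the fit (0.0116). Ptgs2 lies at chr1:150100031-150108227 (plus strand).

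Vcam1, an adhesion molecule that binds the integrin VLA-4, rose by a small amount. It measured 34.4, 37.26 and 33.4 FPKM in KO, 33.4, 33.2 and 32.9 in WT, and 39.5, 37.28 and 40.9 in K262Q. The lowest K262Q library lay just above the highest KO library, and the WT libraries were the least variable, with an SD of 0.260 FPKM. The difference was 0.23 ± 0.05 from WT (limma adjusted p = 0.0397) and 0.16 ± 0.05 from KO (0.142). Sod2, the mitochondrial superoxide dismutase, measured 16.7, 18.8 and 15.9 FPKM in KO, 16.4, 18.3 and 16.6 in WT, and 20.6, 21.4 and 21.5 in K262Q. Its K262Q values lay above both other groups, by 0.29 ± 0.07 against WT (adjusted p = 0.0421) and 0.29 ± 0.07 against KO (0.0760).

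The calls of Vcam1 and Sod2 against WT were lost on leaving out KO replicate 1 or any WT or K262Q library, where adjusted p ran from 0.0578 to 0.113 in Vcam1 and from 0.0648 to 0.126 in Sod2. Their differences stayed above 0 in all 9 such fits. With TMM scaling adjusted p was 0.0636 in Vcam1 and 0.0524 in Sod2. Vcam1 lies at chr3:116109949-116129688 (GRCm38, minus strand) and Sod2 at chr17:13006846-13040063 (plus strand). The annotated gene of Sod2 reaches beyond the locus in the table, as do those of Nfkb2 and Nfkbie. Icam1, another adhesion molecule and NF-κB target, was between 0 and 0.104 FPKM and was not tested.

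**Figure D3:**
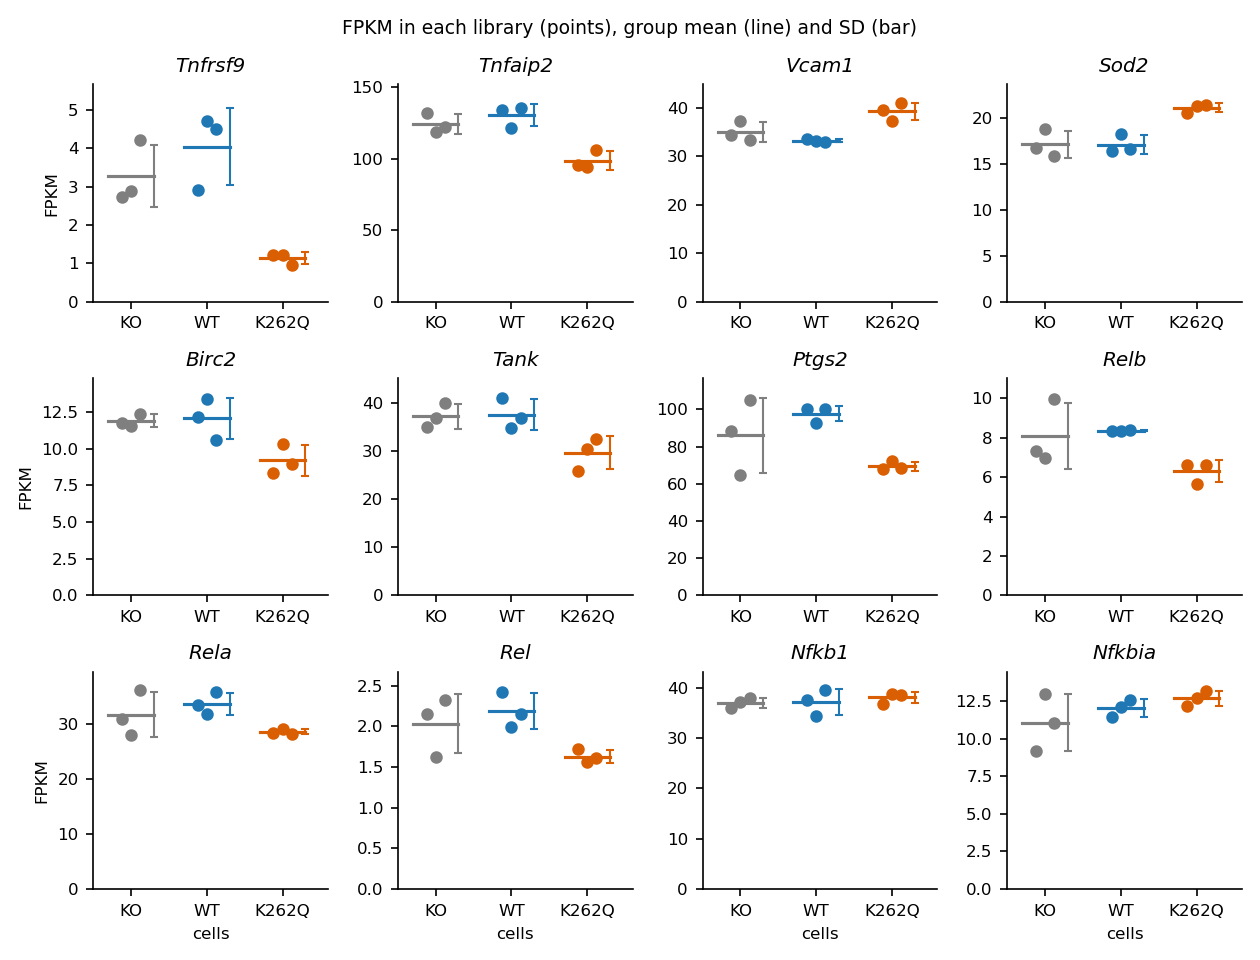
FPKM (vertical axes from 0) of 12 members in each library, with the group mean (line) and SD (bar) for KO, WT and K262Q. K262Q lies apart from both other groups in Tnfrsf9, Tnfaip2, Vcam1, Sod2, Birc2, Tank and Relb, and KO replicate 2 lies near or among the K262Q values in Ptgs2, Rela and Rel.

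Taking both control groups into account, K262Q lay below all 6 KO and WT libraries in 6 members (Birc2, Relb, Ripk1, Tank, Tnfaip2 and Tnfrsf9), against 7.76% of all genes tested. It lay above all 6 in 2 (Sod2 and Vcam1), against 11.5%. The comparisons of K262Q with WT and with KO share the K262Q libraries, so the values are given side by side and not as 2 separate lines of evidence.

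Wild-type Pd-l1 put back into the knockout cells was followed by no member past the threshold: 0 of 31 in limma, with 1 (Tnfrsf1b) at an unadjusted p under 0.05, where all genes gave 0.0819% and 5.62%. All WT values lay below all KO values in 2 members, Tnfrsf1b and Tnfrsf1a (48.9 to 52.0 against 53.2 to 56.4 FPKM), against 6.48% of all genes, and above them in 0, against 2.75%. The median difference was 0.01 over the members and -0.02 over all genes. For Nfkb1 the 95% interval was -0.12 to 0.13, for Nfkbia -0.12 to 0.37 and for Tnfrsf9 -0.20 to 0.67, so a rise of 0.3 in Nfkbia or Tnfrsf9 would lie inside its interval.

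K262Q against KO likewise gave 0 of 31 members in limma, with 8 at an unadjusted p under 0.05, where all genes gave 1.26% and 22%. The K262Q values lay below all KO values in 6 members, against 11.9% of all genes, and above them in 2, against 15%. The median difference was -0.08 over the members and 0.01 over all genes. This comparison changed with 1 library: in 25 of the 31 members KO replicate 2 was displaced towards K262Q relative to the average of KO replicates 1 and 3, and so it was in 71.9% of all genes tested. The same count was 20 members (52.1% of all genes) for KO replicate 1 and 16 (50.8%) for KO replicate 3. The displacement was thus not confined to the members. FPKM summed over all genes was 710320 in KO replicate 2, 665330 in KO replicate 1 and 677740 in KO replicate 3. It was 719530 to 741870 in K262Q. The part of these totals in the displacement was not tested. Leaving out KO replicate 2 gave 5 calls. Sod2 (0.35, limma adjusted p = 0.0225) and Vcam1 (0.20, 0.0460) were higher. Tnfrsf9 (-1.05, 0.0373), Tnfaip2 (-0.36, 0.0376) and Ptgs2 (-0.46, 0.0247) were lower, with 9.15% of all genes passing. Between K262Q and WT the same omission gave 5 calls in place of 4, with 13.1% of all genes passing.

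The calls between K262Q and WT also depended on single libraries. Leaving out KO replicate 1 left 2 calls (Tnfrsf9 and Tnfaip2), and KO replicate 3 gave 6, with Relb (adjusted p = 0.0296) and Ptgs2 added. Leaving out WT replicate 1, WT replicate 3 or K262Q replicate 1 left 1 each, which was Tnfrsf9. Without WT replicate 2, K262Q replicate 2 or K262Q replicate 3 there were 0. Tnfrsf9 thus passed in 6 of the 9 fits, Tnfaip2 in 3, and Vcam1 and Sod2 in 2 each. Among all genes the number past the threshold was 1145 with every library. It was 718, 1597 and 1191 without KO replicate 1, 2 or 3, 49, 44 and 371 without WT replicate 1, 2 or 3, and 333, 29 and 41 without K262Q replicate 1, 2 or 3.

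**Figure D4:**
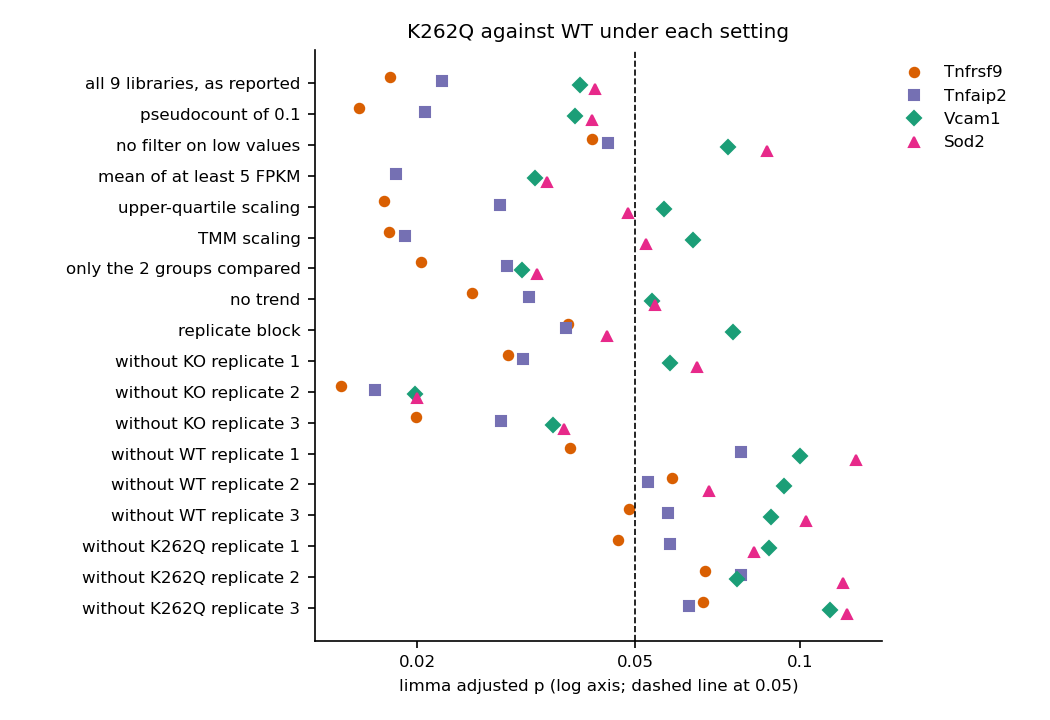
Adjusted p of limma (horizontal log axis, dashed line at 0.05) for the 4 called members in K262Q against WT under each processing setting and with each library left out. Tnfrsf9 lies left of the line in 13 of 16 alternatives, Tnfaip2 in 11 of 17, Sod2 in 7 of 17 and Vcam1 in 5 of 17.

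Beyond the 34 members, 87 other genes of the pathway were listed in 5 groups and 63 were tested. Between K262Q and WT 1 fell and 0 rose, where 9.38% of all genes passed, and 13 had an unadjusted p under 0.05, against 27.9% of all genes. The gene that fell was Irak2, an adaptor kinase of interleukin-1 and Toll-like receptor signalling. It measured 6.61, 7.38 and 7.36 FPKM in KO, 7.66, 7.91 and 7.44 in WT, and 6.01, 4.57 and 5.77 in K262Q, with K262Q below both other groups (log2 difference -0.43 ± 0.09 from WT, limma adjusted p = 0.0338). Its call was lost on leaving out any WT or K262Q library, with adjusted p from 0.0540 to 0.1005. WT against KO and K262Q against KO gave 0 of 63 in limma, with 4 and 13 at an unadjusted p under 0.05 (5.62% and 22% of all genes).

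In the remaining 4 groups no gene passed between K262Q and WT, and the gene with the smallest p was as follows. Among 7 upstream receptors it was Tlr4, the receptor for lipopolysaccharide, at -0.53 ± 0.18 (limma adjusted p = 0.0979). Among 16 ubiquitin-system genes it was Ube2n (Ubc13), the conjugating enzyme for K63-linked chains, at 0.22 ± 0.08 (0.104). Among 9 other inhibitors and coregulators it was Nkiras2, which binds IκB, at -0.17 ± 0.08 (0.226), and among 12 other targets it was Ninj1, an adhesion and membrane-rupture protein, at 0.22 ± 0.09 (0.145). The other 14 of the 26 listed targets had a mean under 1 FPKM and were not tested.

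Other features moved with the same groups. Of 7 mesenchymal markers 3 fell in K262Q against WT, where 3.02% of all genes did: Fn1 (-0.58, limma adjusted p = 0.0160), Zeb2 (-0.55, 0.0470) and Snai2 (-1.12, 0.0483), which passed in 5, 1 and 2 of the 9 fits without a library. Against KO only Fn1 did (-0.53, 0.0373), and it passed in 1 of 9 such fits. The summed level of the 7 markers, at 3075 to 3509 FPKM over all libraries, is almost all Vim. Without Vim the other 6 summed to 172 to 212 FPKM in KO, 207 to 227 for WT and 140.05 to 145 for K262Q, so that K262Q lay below both other groups. Krt18 averaged 34.9 ± 0.713 FPKM in KO, 30.8 ± 1.60 in WT and 27.0 ± 0.904 in K262Q (SD, n = 3 each), and passed in K262Q against KO (-0.36, 0.0360) and in 2 of the 9 fits without a library. The summed level of the 6 epithelial markers, almost all Krt18, was 35.3 to 37.1 FPKM in KO, 30.3 to 33.4 for WT and 26.2 to 28.0 for K262Q. Of 12 leukocyte markers only Cd68 reached a mean of 1 FPKM, Ptprc was listed at 0 in 6 of 9 libraries, and the 12 summed to between 2.79 and 4.60 in KO, 3.04 and 3.72 in WT and 2.99 and 3.45 in K262Q. The 5 endothelial markers summed to 0.112 FPKM at most. The part of these marker differences in the results for NF-κB genes was not tested.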

How the data were processed

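RNA-seq values of 9 CT26 samples in 3 groups, read from the sample titles, were used. Per the labels' protocols, total RNA was extracted with Trizol. Per the submitters' processing notes the tools were STAR 2.5.4a, Cufflinks 2.2.1 and Cuffdiff, with mm10. The authors' deposited table gives FPKM per gene and sample, and use of strand is not given in the sources used here.

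Values were transformed to log2(FPKM + 1), and the 12212 genes whose mean over the 9 samples reached 1 FPKM were fitted with limma 3.58.1 (R 4.3.3): 1 model of 3 groups, moderated with a mean-variance trend, two-sided tests, Benjamini-Hochberg adjustment and a threshold of 0.05. This scale understates changes of low genes. An exact two-sided permutation test of 3 against 3 cannot go below 0.1. Errors of log2 differences are SE, and intervals are 95%.

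Positions come from GENCODE mouse release 21 (GRCm38) and promoter sequences from RefSeq (GRCm38.p6). Members, other pathway genes and markers were listed, and the naming rule written, with earlier results of these data known. By that rule every member of at least 1 FPKM was described. Members past the threshold, or separate between groups by a difference of at least 0.3 (log2), got a value in every sample, and so did Rela, Rel and Nfkbia, chosen after their values were seen. Other pathway genes were named where past the threshold, or for the smallest p of a list. Alternatives changed the pseudocount (0.1), the filter (none, or 5 FPKM), the scaling (upper quartile, TMM), the samples in the fit (only the 2 groups compared, or all but 1 library), the trend (none) and the model (a block for the replicate number). Tables were made with Python 3.11.15 and pandas 2.3.3, and plots with matplotlib 3.10.9.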

Additional observations from a re-analysis of the deposited data

How the results depend on the processing

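Between K262Q and WT the 4 calls became 2 without a filter on low values and 2 without the trend, and the cause was not tested. They became 7 with only the 2 groups compared, where Ptgs2, Rela and Relb were added. In that fit their log2 differences were unchanged, and the KO libraries no longer entered the estimate of the spread. The other settings gave 3 or 4, and leaving out single libraries gave 0 to 6. Between K262Q and KO the 0 calls became 1 with a pseudocount of 0.1 (Tnfrsf9) and 2 with TMM scaling (Tnfrsf9 and Tnfaip2). Of all genes 1.30% and 2.51% passed there, against 1.26% in the fit reported above. Leaving out single libraries gave 0 to 5, the 5 without KO replicate 2, where 9.15% of all genes passed. WT against KO gave 0 in every alternative run. No call reversed direction. For single genes, 1519 values kept their direction and side of the threshold, or stayed uncalled, 40 lost a call and 15 gained one, and 73 of those that stayed uncalled changed sign. Tnfrsf9 was below the minimum of 5 FPKM and was not tested there. Replicate numbers did not pair the samples: correlations of deviations from group means were -0.036 to 0.078 for same numbers and -0.074 to 0.051 for different ones. With the replicate block there were 3 calls between K262Q and WT and 0 in each of the other comparisons. Depth limits the lowest members most, since 1 FPKM of a transcript of 2000 nt rests on 35.8 to 38.3 fragments, and Birc3, Icam1 and Bcl3 lay below that.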
